A study of Saccharomyces cerevisiae with 8 samples.

Results

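TFIIB, the general transcription factor encoded by SUA7, and 9 genes whose products work beside it were followed across 8 arrays of budding yeast. The 10 genes (SUA7, BRF1, SPT15, TOA1, TOA2, TFA1, TFA2, TFG1, TFG2 and MOT1) were found by name among the 6225 genes of the array. Each has 1 probe, printed as 2 spots, and all 10 were among the 6045 genes tested. Budding yeast of the strain CENPK.2-1C, a laboratory strain, was grown in YPD, a rich glucose medium, and collected in exponential phase at an OD600 of 1.0. There are 4 groups of 2 arrays: control cells without H2O2, control cells with 4 mM H2O2 (hydrogen peroxide), TFIIB mutant cells without H2O2 and TFIIB mutant cells with 4 mM H2O2. The series calls the mutant M1 and describes the samples of a group as biological replicates, and it sets M1 against the control in each medium. The change in TFIIB, the way it was brought into the cells and the number of clones are not given in the sources used here, and a probe against SUA7 does not show which form of the gene a cell carries. A group of 2 arrays limits the precision of every value.

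TFIIB sits between the promoter and RNA polymerase II: it holds TATA-binding protein (TBP) on the DNA and helps the polymerase find the start of transcription. The preinitiation complex forms around both, with TFIIA steadying TBP on the promoter, TFIIF arriving with the polymerase and TFIIE bringing in TFIIH, which opens the DNA. BRF1 encodes a relative of TFIIB that does the same kind of work for RNA polymerase III, and Mot1 takes TBP off DNA.

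Positions are those of genome release 64-1-1 in the descriptions of the authors' deposited tables, and all 10 genes are annotated there as verified open reading frames. SUA7 (YPR086W) lies on chromosome XVI, bases 710101 to 711138, plus strand. BRF1 (YGR246C) lies on chromosome VII, bases 982482 to 984272, minus strand, and SPT15 (YER148W), the gene of TBP, on chromosome V, bases 465303 to 466025, plus strand. The subunits of TFIIA are encoded by TOA1 (YOR194C, chromosome XV, bases 711683 to 712543, minus strand) and TOA2 (YKL058W, chromosome XI, bases 330166 to 330534, plus strand). Those of TFIIE are encoded by TFA1 (YKL028W, chromosome XI, bases 385758 to 387206, plus strand) and TFA2 (YKR062W, chromosome XI, bases 559666 to 560652, plus strand). TFIIF is represented by TFG1 (YGR186W, chromosome VII, bases 867774 to 869981, plus strand) and TFG2 (YGR005C, chromosome VII, bases 504657 to 505859, minus strand). MOT1 (YPL082C) lies on chromosome XVI, bases 398480 to 404083, minus strand.

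The arrays of both strains differ in brightness as a whole. The 75th percentile of probe signals lay at 9185 to 15424 units on the control arrays and at 9.87 to 14.5 units on the mutant arrays, while the E1A spike-in probes, which read RNA added during labelling, gave 2621 to 4079 and 3209.8 to 4693 units. Of the probes, 94.7% to 97.2% were well above background on a control array and 21.8% to 41.2% on a mutant array, and 51.0% of genes were so on 0 of the 4 mutant arrays. The scanner software's flag for a good grid read 0 on the 4 control arrays and 1 on the 4 mutant arrays. As to the strain, the MATa genes MFA1, MFA2, STE2 and BAR1 gave 5684 to 27212 units and the MATalpha genes MF(ALPHA)1, MF(ALPHA)2 and STE3 gave 36.0 to 650.2 units in control cells, and these ranges were 6.56 to 20.5 and 1.52 to 41.6 units on the mutant arrays. The headers name 1 slide and 1 scan for all 8 arrays. The part of array brightness and of the grid flag in any difference between strains was not tested. Results are therefore given on both of these scales: log2 signal minus the array's 75th percentile, which is the main one, and log2 signal minus the mean of the E1A probes. On the mutant arrays that percentile lay close to the dimmest probes still well above background, at 7.15 to 9.73 units. A gene called higher in the mutant on the main scale is thus higher relative to signals near background.

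**Figure D1:**
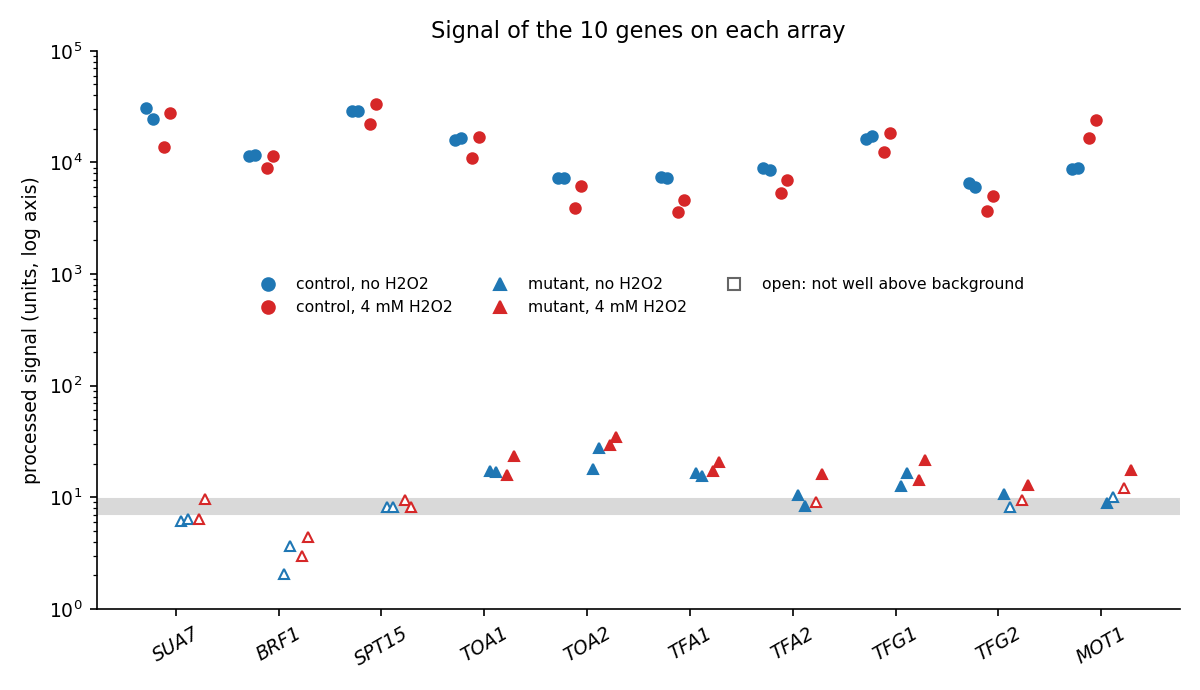
Processed signal (units, log axis) of each of the 10 genes on each of the 8 arrays, circles for control and triangles for mutant arrays, blue without and red with 4 mM H2O2, and open where the probe was not well above background. The grey band, 7.15 to 9.73 units, spans the dimmest probes that still counted as well above background on the mutant arrays. The dimmest control value is 3613 units (TFA1) and the brightest mutant value 34.6 units (TOA2), and signals are to be compared within a gene only.

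In control cells MOT1 was the member that rose with H2O2, 3.20-fold relative to the rest of the array, and SUA7 and the other 8 genes did not pass the test. By limma with Benjamini-Hochberg adjustment over all genes tested, 1 of the 10 genes was called, beside 27.1% of all 6045 genes, 13.1% being higher. The median log2 change of the 10 genes was 0.13, beside 0.032 for all genes. The groups did not overlap for 6 of the 10 genes on the 75th percentile scale, beside 86.6% of all genes, and for 6 in raw signal, beside 71.5%. Fitted on the control arrays alone, 5 of the 10 genes were called: MOT1, BRF1, SPT15 and TFG1 higher and TFA1 lower, at the same log2 changes, beside 57.5% of all genes in that fit. Counts over all genes depend on the scaling and on single arrays: 790 were higher and 847 lower, against 29 and 964 on the spike-in scale (16.4% in all) and 36 and 74 after quantile normalization. Without the first or the second control array lacking H2O2, 85 and 291 genes were called, and without the second control array with H2O2, 532. In bulk samples such as these, fewer cells of a kind and less RNA per cell cannot be told apart.

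MOT1, the ATPase that removes TBP from DNA, read 8748 and 8884 units without H2O2 and 16395 and 24183 units with it. Both arrays with H2O2 lay above both without it, although the arrays with H2O2 were dimmer as a whole. Relative to the 75th percentile MOT1 stood at -0.81 ± 0.017 without and 0.87 ± 0.050 with H2O2 (mean ± SD, n = 2 arrays each), a log2 change of 1.68 ± 0.17 (SE; limma, adjusted p = 0.00313), with a 95% interval of 2.43- to 4.21-fold. On the spike-in scale the change was 1.13 ± 0.42 (adjusted p = 0.0696) and after quantile normalization 1.18 (adjusted p = 0.0671), so that the call was lost on both. Counting the control arrays without H2O2 as 1 sample left an adjusted p of 0.0431, and leaving out each array in turn gave 1.64 to 1.71.

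SUA7 itself read 30808 and 24617 units without H2O2 and 13788 and 27730 units with it. The second array with H2O2 fell between those without it and the first lay below them, so the groups overlapped. The mean signals were 27713 ± 4377 and 20759 ± 9858 units (SD, n = 2 each). Relative to the 75th percentile the log2 change was 0.0079 ± 0.22, with a 95% interval of -0.52 to 0.53 (limma, adjusted p = 0.983). Relative to the spike-in probes it was -0.54 ± 0.43 (adjusted p = 0.410), and leaving out each array in turn moved the main value between -0.25 and 0.27. Any change of SUA7 within the 95% interval is compatible with these arrays. The interval is not a limit of detection, since on simulated data the fit recovered 34.5% of genes with a log2 change of 1.

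SPT15, whose product TBP serves RNA polymerases I, II and III, read 28614 and 28639 units without and 22290 and 33307 units with H2O2. BRF1 read 11337 and 11732 units without and 8850.2 and 11328 units with it. In both genes the first array with H2O2 was the lowest of the 4, and in raw signal only SPT15's groups overlapped. Against the 75th percentile SPT15 had a log2 change of 0.43 ± 0.25 (95% interval -0.15 to 1.02, adjusted p = 0.244) and BRF1 of 0.30 ± 0.30 (-0.41 to 1.01, adjusted p = 0.508). Both turned to small negative values on the spike-in scale, -0.12 ± 0.40 and -0.25 ± 0.46, and neither scale gave a call in the fit of all 8 arrays. In the fit of the control arrays alone SPT15 passed at an adjusted p of 0.0130 and BRF1 at 0.0400.

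The TFIIA genes did not pass the test on either scale, although TOA1 did with normexp (0.28, limma, adjusted p = 0.00990). TOA1, for the large subunit, read 15731 and 16653 units without and 11012 and 16791 units with H2O2. TOA2, for the small subunit, read 7310.2 and 7264 units without and 3922 and 6188 units with it. The TOA1 groups overlapped in signal, whereas both TOA2 arrays with H2O2 lay below both without it, as most of the array did. Relative to the 75th percentile the log2 changes were 0.25 ± 0.15 for TOA1 (adjusted p = 0.261) and -0.063 ± 0.26 for TOA2 (adjusted p = 0.877).

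TFIIE, which recruits TFIIH, and TFIIF, which binds the polymerase, also had no gene that passed on either scale in the fit of all 8 arrays. TFA1, for the large TFIIE subunit, read 7403 and 7298 units without and 3613 and 4636 units with H2O2. It had the most negative log2 change of the 10 genes, -0.34 ± 0.16 (95% interval -0.72 to 0.036, adjusted p = 0.160), and -0.89 ± 0.40 on the spike-in scale (adjusted p = 0.143), and it passed in the fit of the control arrays alone (adjusted p = 0.0269). TFA2, for the small subunit, read 8969 and 8560.4 units without and 5286 and 6975 units with it, a log2 change of -0.027 ± 0.17 (adjusted p = 0.917). The interval of TFA1 thus ends near 0 and that of TFA2, -0.43 to 0.37, lies around it, and their difference was not tested. TFG1 read 16251 and 17209 units without and 12483 and 18373 units with H2O2, with overlapping groups and a log2 change of 0.36 ± 0.20 (adjusted p = 0.238, and 0.0207 in the fit of the control arrays alone). TFG2 read 6521 and 6022 units without and 3686 and 5003 units with it, both lower in signal but with a log2 change of -0.043 ± 0.16 once scaled (adjusted p = 0.861). For 9 of the 10 genes the mean signal was lower with H2O2, MOT1 being the exception, while the median probe of the array went from 5957 and 6022 units to 3547 and 4801 units.

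**Figure D2:**
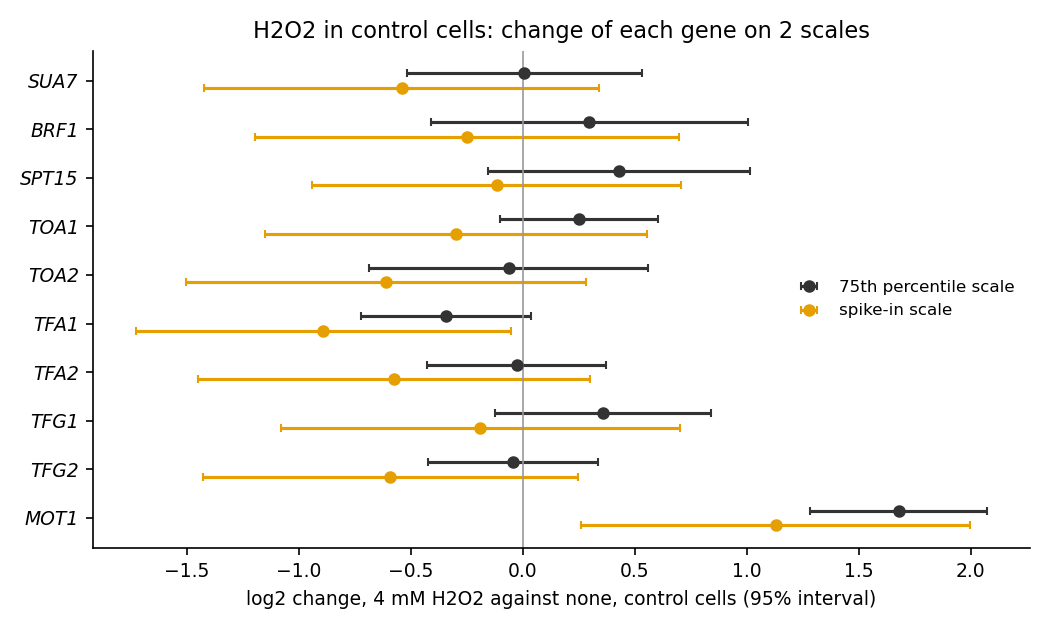
Log2 change with 4 mM H2O2 in control cells (x axis) for each of the 10 genes, points with 95% intervals from limma, black on the 75th percentile scale and orange on the spike-in scale. The interval of MOT1 lies above 0 on both scales, although its adjusted p on the spike-in scale is 0.0696, and on the 75th percentile scale the other 9 intervals include 0. On the spike-in scale that of TFA1 ends at -0.054.

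SUA7 differed more between replicate arrays than the other 9 genes did in control cells. The control arrays without H2O2 were otherwise close to each other: over 5889 genes well above background on both, the SD between arrays was 0.073 on the log2 scale, a variance 1.41 times that of duplicate spots, against 0.30 and 42.7 times for the control arrays with H2O2. Between the arrays without H2O2 SUA7 differed by 0.32 on the log2 scale, or 1.25-fold, with the first array higher, beside a median difference of 0.045 over all genes. The 2 spots of its probe differed by 1.04-fold and 1.07-fold on these arrays, less than the arrays did. Of all genes 98.4% differed less, as did 99.8% of the 500 other genes nearest to SUA7 in brightness. The other 9 genes differed by 0.0033 (SPT15) to 0.11 (TFG2).

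With H2O2 the replicate difference of SUA7 was 0.52, or 1.43-fold, now with the second array higher, and 89.5% of 5991 genes differed less, as did 95.6% of the 500 nearest in brightness. The other 9 genes differed by 0.049 (TFG2) to 0.17 (TOA2), beside a median of 0.15. These ranks describe the 4 arrays and carry no test. Whether the control samples without H2O2 were grown as separate cultures is not given in the sources used here, and p-values then measure only the spread between these samples, which may be technical.

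**Figure D3:**
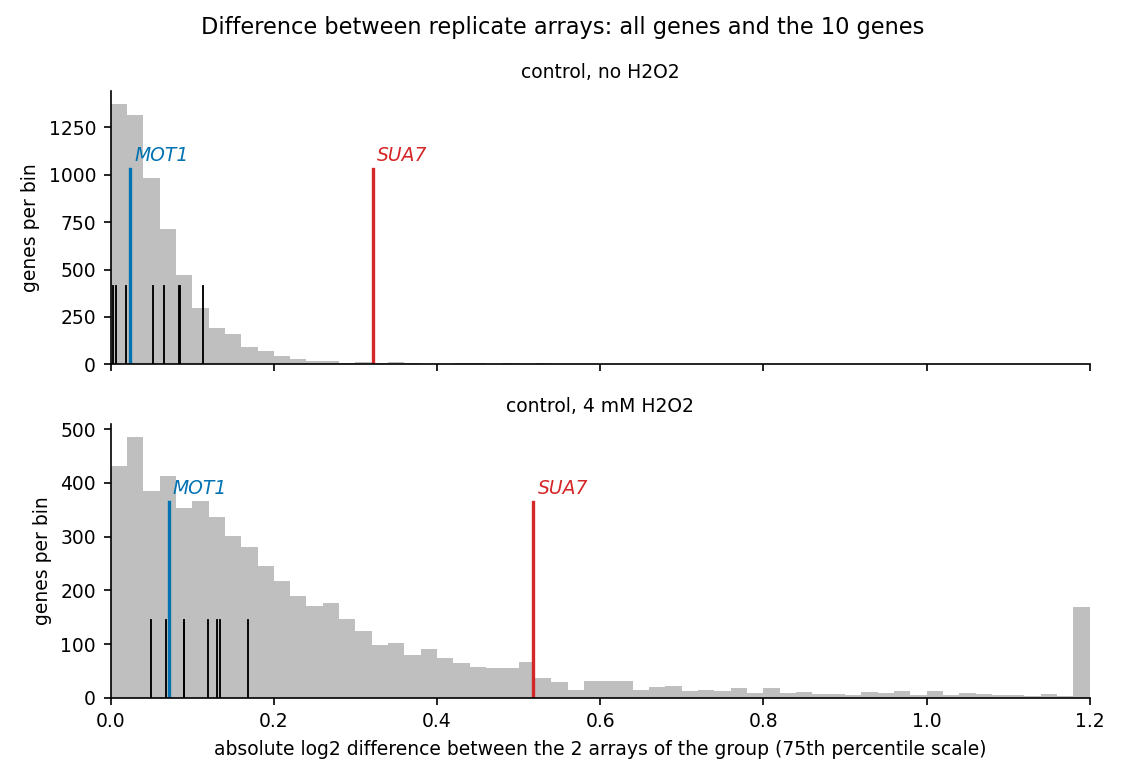
Absolute log2 difference between the replicate arrays of the control groups (x axis, 75th percentile scale), as grey bars for all genes well above background on both arrays (genes per bin, the last bin holding all larger values) and as lines for the 10 genes. SUA7 stands at 0.32 without and 0.52 with H2O2, to the right of the other 9 genes in both panels.

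Other initiation factors were described in the same comparison by lists chosen with earlier results of these data known, and their counts are to be read against the 27.1% of all genes called and the 13.1% called higher. In TFIID, which brings TBP to promoters, 3 of 14 TAF genes were called, all higher (limma, adjusted p under 0.05), with a list median of 0.42. These were TAF1 at 0.92 ± 0.22, TAF5 at 0.66 ± 0.19 and TAF3 at 0.61 ± 0.15, while TAF7 stood at 0.94 ± 0.30 (adjusted p = 0.0535). In TFIIH, the helicase and kinase complex, 1 of 10 was called, TFB1 at 0.55 ± 0.16, with a median of 0.26. RAD3 (a helicase) stood at 0.66, TFB2 at 0.77 and KIN28 (the kinase of the polymerase tail) at 0.38 without passing.

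Among 5 other regulators of TBP, SPT8, a SAGA subunit, was higher (0.71 ± 0.19, adjusted p = 0.0322) and BDF1, a bromodomain partner of TFIID, lower (-0.60 ± 0.17, adjusted p = 0.0414). BUR6 and NCB2, whose products form the TBP repressor NC2, stood at 0.079 and 0.038 without passing. Of 5 genes with genetic or physical ties to TFIIB, 2 were called: SSU72, a phosphatase of the polymerase tail, at 0.92 ± 0.20 (adjusted p = 0.0168) and RPO21, the largest polymerase II subunit, at 0.53 ± 0.16 (adjusted p = 0.04996). SUB1 stood at -0.51 and RPB9 at 0.34 without passing. The initiation factors of RNA polymerases I and III had 5 of 14 genes higher, with a median of 0.42. RRN11 and RRN6, of the polymerase I core factor, were at 2.73 ± 0.36 and 1.25 ± 0.20, RRN3, which joins polymerase I to it, at 1.89 ± 0.34, and TFC4, of TFIIIC, at 0.92 ± 0.20. Relative to the spike-in probes the medians were -0.12 for TFIID, -0.29 for TFIIH, -0.51 for the regulators of TBP, -0.20 for the partners of TFIIB and -0.13 for polymerases I and III, beside -0.52 for all genes.

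**Figure D4:**
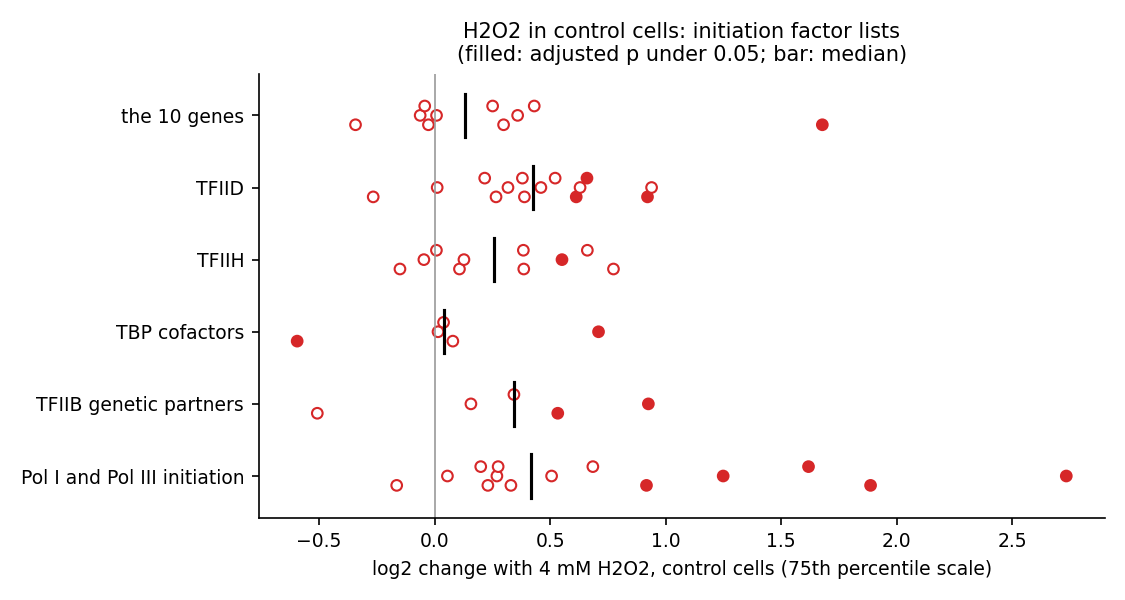
Log2 change with 4 mM H2O2 in control cells (x axis, 75th percentile scale) of each gene in the set of 10 and in 5 lists of initiation factors, filled where the adjusted p was under 0.05, with a bar at each list's median. MOT1 at 1.68 stands apart in its row, and the row of polymerases I and III holds RRN11 at 2.73.

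By likeness of pattern, measured as the root mean square difference of scaled log2 values after each gene's own mean was removed, the 5 named genes nearest to SUA7 over the 8 arrays were PAM17 (0.12), PUP1 (0.13), MRN1 (0.15), MHR1 (0.15) and RPB2 (0.17), among 5119 genes with a median of 1.14. Since SUA7 was not well above background on the 4 mutant arrays, this likeness rests in part on signals near background and gives no order among the members. Over the 4 control arrays the genes nearest to MOT1 were UTP14 (0.052), KRI1 (0.054), RRT14 (0.060), FYV7 (0.064) and UTP4 (0.069), against a median of 0.83. Of the other members the nearest was SPT15 at 0.62. Array brightness is shared by all of these genes.

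In the comparison of mutant with control arrays, all 10 genes were dimmer in raw signal on every mutant array than on any control array, beside 99.8% of all genes without overlap in cells without H2O2 and 99.7% in cells with it. SUA7 read 6.08 and 6.35 units on the mutant arrays without H2O2 and 6.38 and 9.71 units with it, BRF1 read 2.06 and 3.68 and then 2.96 and 4.37 units, and SPT15 read 8.25 and 8.25 and then 9.41 and 8.13 units. None of these probes was well above background on a mutant array, a call that both spots must pass. Over the 4 mutant arrays single spots passed, 2 of SUA7, 3 of SPT15 and 0 of BRF1. The spots of SUA7 and SPT15 lay above all negative control spots on these 4 arrays. On 1 of them the dimmer of BRF1's spots, at 1.56 units, lay below the brightest negative control spot. By mean signal SUA7 was higher in control cells without H2O2 than with it, with overlapping arrays, and the mutant groups have no order in SUA7, since none of their signals was well above background.

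The other 7 genes were well above background on some or all mutant arrays. TOA1 (16.0 to 23.4 units), TOA2 (18.1 to 34.6), TFA1 (15.4 to 21.0) and TFG1 (12.6 to 21.5) were well above background on all 4. TFA2 (8.41 to 16.1 units) was so on 3, and TFG2 (8.17 to 12.9) and MOT1 (8.92 to 17.6) on 2. The duplicate spots of the 10 probes differed by a median of 1.04-fold and 1.03-fold on the control groups and of 1.23-fold and 1.28-fold on the mutant groups. For the 4 genes well above background on all mutant arrays, signals without H2O2 were between 317.5-fold (TOA2) and 1148-fold (TFG1) lower on mutant than on control arrays.

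Without H2O2 the genes for TFIIA and TFIIE, TFG2 and MOT1 came out higher in the mutant and those for TFIIB, BRF1 and TBP lower when scaled to the 75th percentile, whereas all 10 were lower on the spike-in scale. By limma 9 of 10 genes were called, 6 higher and 3 lower, beside 79.3% of all genes (50.5% higher and 28.8% lower), so this share is not far from that of the array. The 3 called lower were well above background on 0 mutant arrays. They entered the test through the control arrays, and their calls take signals near background as measured. The groups did not overlap for 10 of 10 genes, beside 91.7% of all genes. Over all genes 3050 were higher and 1741 lower, against 2332 and 2450 when scaled to the median and 2122 and 2010 after quantile normalization, scalings that moved the median of all genes from 0.63 to -0.095 and -0.031. On the spike-in scale the call lower was made for 10 of 10, beside 99.6% of all genes. The median log2 change was 0.65 on the first scale and -10.18 on the second, beside 0.63 and -10.19 for all genes.

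In cells without H2O2 SUA7 had a fitted log2 change of -1.58 ± 0.22 on the 75th percentile scale (limma, adjusted p = 0.000373). Its 95% interval was -2.10 to -1.05. With mutant signals raised to a floor, described below, it was 2.46-fold lower on this scale and 4461-fold lower relative to the spike-in probes. The fitted changes were -1.23 ± 0.25 for SPT15 (adjusted p = 0.00260) and -1.50 ± 0.30 for BRF1 (adjusted p = 0.00246). With the floor these genes were 2.34-fold and 1.03-fold lower, which became 4250.1-fold and 1868-fold relative to the spike-in probes. SUA7, SPT15 and BRF1 entered the test through the control arrays, and their p-values take mutant signals that were not well above background as measured. For the folds, a probe that was not well above background on a mutant array was given the level of the dimmest probe that was, unless its own signal was higher. The fold of SPT15 is therefore the measured one. These folds are not strict limits. On the first mutant array with H2O2 MOT1 read 12.03 units without being well above background, while the dimmest passing probe read 8.61 units. The folds also depend on the scaling and background correction: with normexp SUA7 stood at -0.86 and SPT15 at -0.88 on the log2 scale, which are smaller differences. BRF1, with a floored fold close to 1, lost its call and turned to 0.18 with normexp (adjusted p = 0.0575). The call was also lost in the unpaired test (adjusted p = 0.120) and on the authors' normalized values (adjusted p = 0.0607).

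Of the genes called higher without H2O2 on the 75th percentile scale, TOA2 had a log2 change of 2.19 ± 0.26 (adjusted p = 0.000156), which was -8.64 on the spike-in scale. TFA1 had 1.68 ± 0.16 (adjusted p = 4.21e-05), against -9.14, and TFG2 had 1.15 ± 0.16 (adjusted p = 0.000352), against -9.68. Their partner subunits stood at 0.63 ± 0.15 (TOA1), 0.66 ± 0.17 (TFA2) and 0.36 ± 0.20 (TFG1, adjusted p = 0.143, not called), and the differences between subunits were not tested. MOT1 had 0.68 ± 0.17 (adjusted p = 0.00714). TFG2 and MOT1 were well above background on 1 array of each mutant group, so they too entered the test through the control arrays. The calls of TFA2 and MOT1 were lost without either control array lacking H2O2 (adjusted p of 0.0520 to 0.0712), that of TOA1 without the first (0.0689), and TFG1 was called without the first mutant array (0.63, adjusted p = 0.00720). On the spike-in scale these 4 genes stood between -10.47 and -10.15, and scaled to the median of each array TOA1, TFA2, TFG1 and MOT1 stood at -0.37 to -0.052, while TFG2 stood at 0.42 and lost its call (adjusted p = 0.0517). TFA2 and MOT1 were also not called after quantile normalization (0.34 and 0.35, adjusted p = 0.216 and 0.227) or on the authors' normalized values (0.33 and 0.34, adjusted p = 0.144 and 0.332), MOT1 not in the unpaired test (adjusted p = 0.0779) and TOA1 not with normexp (0.11, adjusted p = 0.164).

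With H2O2, 8 of 10 genes were called, 4 higher and 4 lower on the 75th percentile scale, beside 80.0% of all genes (51.7% higher and 28.3% lower), and all 10 were lower on the spike-in scale, beside 99.4%. The groups did not overlap for 10 of 10 genes, beside 90.6% of all genes. Over all genes 3127 were higher and 1709 lower, against 2395 and 2464 when scaled to the median and 2120 and 2016 after quantile normalization. The median log2 change of the 10 genes was 0.22 on the 75th percentile scale, beside 0.73 for all genes. SUA7 stood at -1.45 ± 0.22 (limma, adjusted p = 0.000581), SPT15 at -1.78 ± 0.25 (adjusted p = 0.000345) and BRF1 at -1.62 ± 0.30 (adjusted p = 0.00163). With mutant signals raised to the same floor they were 2.35-, 3.14- and 1.21-fold lower, with the same limits. With normexp they stood at -0.85, -1.32 and -0.070 on the log2 scale, smaller differences than these folds and without a call for BRF1 (adjusted p = 0.401). SPT15 was not called in the unpaired test (adjusted p = 0.0631). MOT1, higher in the mutant without H2O2 on this scale, was 1.51-fold lower with it (-0.59 ± 0.17, adjusted p = 0.0130), a call lost without the second control array with H2O2 (adjusted p = 0.0577). After quantile normalization it stood at -0.083 (adjusted p = 0.770) and on the authors' normalized values at -0.10 (adjusted p = 0.604), both without a call. Like TFG2, MOT1 entered the test through the control arrays, being well above background on 1 array of each mutant group. The 4 genes called higher were again TOA2 (2.56 ± 0.26), TFA1 (2.07 ± 0.16), TFG2 (1.22 ± 0.16) and TFA2 (0.85 ± 0.17), with -7.59, -8.07, -8.92 and -9.30 on the spike-in scale. The call of TFA2 was lost when scaled to the median (0.095, adjusted p = 0.594), in the unpaired test (adjusted p = 0.0508) and on the authors' normalized values (adjusted p = 0.0886). TOA1 (0.37 ± 0.15, adjusted p = 0.0543) and TFG1 (0.065 ± 0.20, adjusted p = 0.778) were not called. TOA1 was called higher after quantile normalization (0.99, limma, adjusted p = 0.00241). TFG1 was called lower when scaled to the median (-0.69, adjusted p = 0.0219) and with normexp (-0.26, adjusted p = 0.00354).

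The lists of other initiation factors held calls between strains in both directions on the 75th percentile scale, where 79.3% of all genes were called without H2O2 (50.5% higher and 28.8% lower). Without H2O2, 8 of 10 TFIIH genes were called, all higher, and of the factors of polymerases I and III 10 of 14 were higher and 1 lower. TFIID had 6 of 14 higher and 3 lower, the regulators of TBP 1 of 5 higher and 1 lower, and the partners of TFIIB 2 of 5 higher and 2 lower. With H2O2, where 51.7% of all genes were higher and 28.3% lower, 7 of 10 TFIIH genes were called, all higher, and the counts higher and lower were 9 and 3 for polymerases I and III, 5 and 3 for TFIID, 1 and 1 for the regulators of TBP and 2 and 2 for the partners of TFIIB. On the spike-in scale every gene of these 5 lists was lower in both media, as were 99.6% and 99.4% of all genes.

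**Figure D5:**
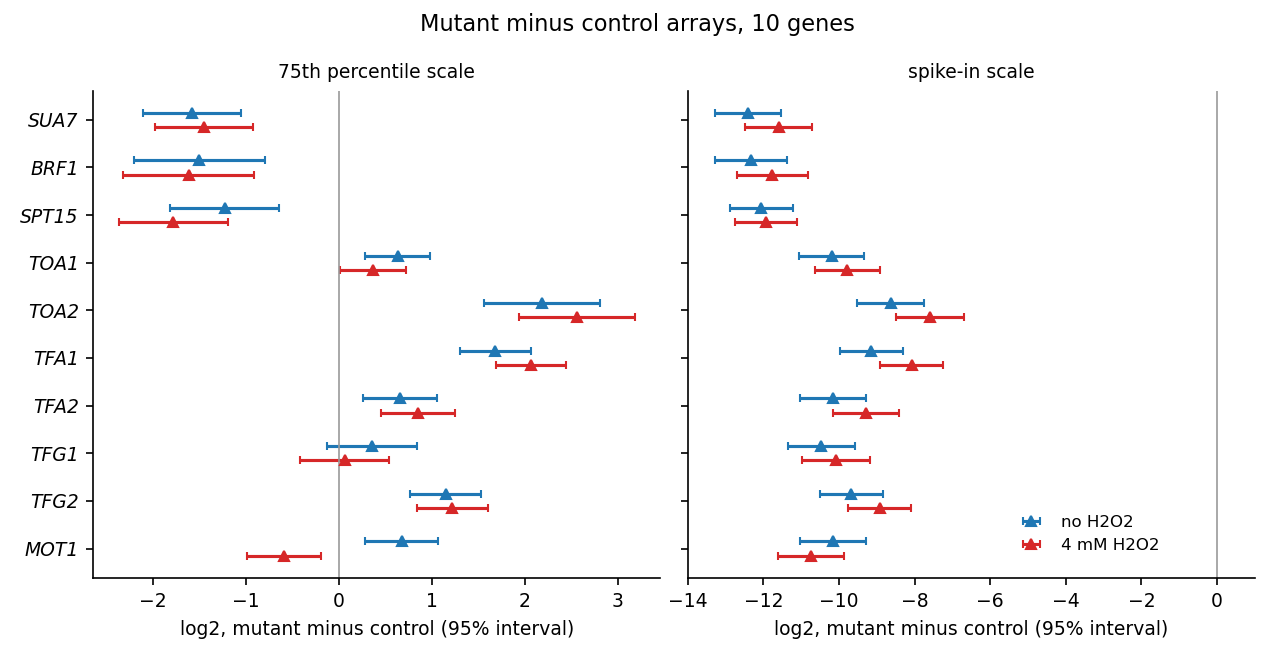
Log2 difference, mutant minus control (x axes), of each of the 10 genes without H2O2 (blue) and with 4 mM H2O2 (red), points with 95% intervals from limma, on the 75th percentile scale (left) and the spike-in scale (right). On the left SUA7, BRF1 and SPT15 lie below 0 and TOA2, TFA1, TFG2 and TFA2 above it, and on the right all 10 genes lie between -12.4 and -7.59. SUA7, BRF1 and SPT15 were not well above background on any mutant array.

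In the authors' deposited table for cells without H2O2, SUA7 is 3.42-fold down (corrected p = 0.0402), SPT15 2.30-fold down, and TOA1, TOA2 and TFA1 are 2.22-, 5.27- and 3.62-fold up, these 5 of the 10 genes having a corrected p under 0.05. In the authors' deposited table for cells with H2O2, 6 of the 10 are under it, among them SUA7 at 2.94-fold down (corrected p = 0.0366) and BRF1 at 5.63-fold down. The share of all genes under it was not counted here, so these counts show nothing particular to the 10 genes. By an unpaired test on the 75th percentile values, 3912 of 6045 genes were called without H2O2 and 3784 with it. In the authors' deposited table for either medium, each of the 10 genes has the direction that the 75th percentile scale gave.

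H2O2 moved no member past the threshold on the mutant arrays: 0 of 10 genes were called (limma), beside 0.0331% of all genes, which is 2 of 6045 (NOP58 and YCR022C, named after their values were seen). MOT1 alone had an unadjusted p under 0.05, with 8.92 and 10.1 units without and 12.03 and 17.6 units with H2O2. Its arrays with H2O2 lay above those without, in signals near background, and the log2 change was 0.41 ± 0.17 (unadjusted p = 0.0438, adjusted p = 0.380). The groups did not overlap for 4 of 10 genes in raw signal, beside 29.7% of all genes, and for 1 of 10 on the 75th percentile scale, beside 33.2%. The other 9 genes ran from -0.12 (SPT15) to 0.31 (TOA2). SUA7 had 0.14 ± 0.22, with a 95% interval of -0.39 to 0.66 (adjusted p = 0.879).

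The difference between strains in the response to H2O2 was called for 1 of the 10 genes, beside 11.6% of all genes, 5.57% having the lower response in the mutant. MOT1 changed by 1.27 ± 0.24 less on the log2 scale in mutant than in control arrays (interaction -1.27, limma, adjusted p = 0.0282). On the spike-in scale this was -0.59 ± 0.59 (adjusted p = 0.553), where 7.68% of all genes were called, and with the control arrays without H2O2 counted as 1 sample the adjusted p was 0.143. The call was also lost without either of those arrays (adjusted p of 0.160 and 0.129), without the second control array with H2O2 (0.0845) and without either mutant array with H2O2 (0.0512 and 0.0505), at changes of -1.28 to -1.23. SUA7 had an interaction of 0.13 ± 0.32 (95% interval -0.62 to 0.87, adjusted p = 0.816), and the remaining 8 genes ran from -0.55 (SPT15) to 0.39 (TFA1).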

How the data were processed

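The members and lists were chosen with earlier results of these data known. The scanner files' intensity values were made by the authors with Feature Extraction 10.7.1.1, per the file headers, as background-subtracted processed signals with each spot's background call kept beside its signal. The authors' deposited tables, 1 per medium, hold normalized log2 values, a p-value with its corrected form from an unpaired test, and an absolute fold change, per the file headers. Of their columns, 8 per-sample columns of raw values were not used here, nor were 4 emptied rows of each table. Groups and replicate numbers come from the sample titles.

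Control and outlier spots were removed, duplicate spots were averaged on the log2 scale, and each array was centred on its 75th percentile. The spike-in scale subtracts the mean of 7 of 10 E1A probes, those well above background on all arrays. Genes with several probes (29) took the brightest. Testing covered the 6045 of 6225 genes that had both arrays of some group well above background. It used limma 3.58.1 in R 4.3.3, all 4 groups in 1 fit (4 residual and 3.10 prior degrees of freedom), two-sided, with Benjamini-Hochberg adjustment in each of 5 comparisons and a threshold of 0.05. The spread is pooled over groups that differ in it. Tested on simulated data made for the effect of H2O2 in control cells (6045 genes, 200 changed), the fit recovered 34.5% of genes with a log2 change of 1 (2 false calls) and 90.5% with a change of 2 (6 false calls). Named beside the 10 genes were up to 4 genes of each list with the smallest p for H2O2 in control cells, the 5 genes nearest to SUA7 and to MOT1 in pattern, and mating type genes. The alternatives were other scalings, normexp with an offset of 50 on median signals, other filters, a fit of 2 groups at a time, a block on replicate number, the authors' normalized values, the unpaired test and leaving out each array in turn. RefSeq's table of assembly R64 matched 5720 genes and gave the same position for all 10.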

Additional observations from a re-analysis of the deposited data

Results flagged for a closer look

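MOT1 responded to H2O2 differently in the strains by the interaction test, with a log2 change of 1.68 on control arrays and 0.41 on mutant arrays, a difference of -1.27 (limma, adjusted p = 0.0282). The call was lost on the spike-in scale and after quantile normalization, and the mutant signals it rests on, 8.92 to 17.6 units, were well above background on 2 of 4 arrays. The part of the low signal in this difference was not tested.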

How the results depend on the processing

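The low signal on the mutant arrays limits every comparison with them, and 2 arrays a group limit the rest. Of 830 values of single genes recomputed under other settings, 711 kept direction and side of the threshold. Several of these settings change only the test or the genes tested, or drop an array outside the comparison. Those leave the log2 change as it was, so its direction could not turn in them. Whether the numbers in the titles pair the samples cannot be settled, since 2 arrays a group give 1 correlation per pair of groups. These correlations ran from -0.0725 to 0.21, the highest between the control groups. With the replicate number as a block, 1 of the 10 genes was called for H2O2 in control cells (1420 of all 6045). It was 0 for H2O2 in mutant cells (0 of all) and 1 for the interaction (496). For mutant against control it was 9 without H2O2 (4729 of all) and 8 with it (4822). The counts of the 10 genes were the same without the block. Unless stated, causes of the changes below were not tested.

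Quantile normalization called 0 genes of 10 for H2O2 in control cells and 0 for the interaction, beside 110 and 11 of all 6045 genes. It put SUA7 at -0.010 and TFA2 at 0.0087 in the first and BRF1 at 0.26 in the second. Scaling to the median called 5 for mutant against control without H2O2, beside 4782 of all genes (TOA1 -0.095, TFA2 -0.065, TFG1 -0.37, MOT1 -0.052). It gave TOA1 -0.39 and TFG1 -0.69 with H2O2, and TFA2 0.0084 for H2O2 in control cells. The spike-in scale called 0 for H2O2 in control cells, beside 993 of all genes (SUA7 -0.54, BRF1 -0.25, SPT15 -0.12, TOA1 -0.30, TFG1 -0.19). For the interaction it called 0, beside 464 of all genes (BRF1 0.56, SPT15 0.13, TOA1 0.42, TFG1 0.39). It gave SPT15 0.011 and TOA1 0.12 for H2O2 in mutant cells. Without H2O2 it put TOA1 at -10.19, TOA2 at -8.64, TFA1 at -9.14, TFA2 at -10.16, TFG1 at -10.47, TFG2 at -9.68 and MOT1 at -10.15 in mutant against control, and with H2O2 TOA1 at -9.78, TOA2 at -7.59, TFA1 at -8.07, TFA2 at -9.30, TFG1 at -10.08 and TFG2 at -8.92.

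Normexp called 6 for H2O2 in control cells, beside 4235 of all 6045 genes (SUA7 -0.012, TFG2 0.012). These were MOT1, SPT15, TOA1, TFG1 and BRF1, which were higher, and TFA1, which was lower. For the interaction it called 4, beside 3382 of all genes (TFG2 -0.034). Between strains it gave BRF1 0.18 without H2O2, and TOA1 -0.15 and TFG1 -0.26 with it. For H2O2 in mutant cells it gave BRF1 -0.040, SPT15 0.018, TOA1 0.028, TFG1 -0.0036 and TFG2 -0.022. With testing limited to probes well above background on 8 of 8 arrays, which kept 4 of the 10 genes, 0, 3, 3 and 0 were called for H2O2 in control cells, the strains without and with H2O2 and the interaction. In the same order 409, 948, 970 and 221 of 1073 genes were called. The compared groups alone gave 5 for H2O2 in control cells, and the control arrays without H2O2 counted as 1 gave 0 for the interaction.

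Each array was also left out in turn, which leaves 1 array in its group, so for the 10 genes only the changes are given here. Signs turned for SUA7 (-0.25 to 0.27), TOA2 (-0.15 to 0.021), TFA2 (-0.072 to 0.018) and TFG2 (-0.0996 to 0.013) with H2O2 in control cells. For H2O2 in mutant cells they turned for BRF1 (-0.31 to 0.68), SPT15 (-0.50 to 0.25), TOA1 (-0.077 to 0.050), TOA2 (-0.077 to 0.69), TFA1 (-0.081 to 0.17), TFG1 (-0.20 to 0.34) and TFG2 (-0.092 to 0.15), and in the interaction for SUA7 (-0.13 to 0.39), BRF1 (-0.61 to 0.38), TOA2 (-0.015 to 0.75) and TFG2 (-0.049 to 0.20).

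Over all genes, 1637 calls for H2O2 in control cells became 110 (quantile), 993 (spike-in), 4235 (normexp), 3473 (compared groups), 409 (all 8 arrays) and 124 (control arrays counted as 1). The 4791 and 4836 calls between strains became 948 and 970 over genes measured on all 8 arrays, of which there were 1073. The 2 calls for H2O2 in mutant cells became 91 (quantile), 1 (spike-in) and 0 (normexp, all 8 arrays, compared groups, replicate block), and 0 to 328 without 1 array. The 700 calls of the interaction became 11 (quantile), 464 (spike-in), 3382 (normexp), 221 (all 8 arrays) and 0 (control arrays counted as 1), and 0 to 1240 without 1 array.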
